A study of Mus musculus with 5 samples.

Results

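The genes described here are the constant genes of the immunoglobulin heavy chain (Ighm, Ighd, Ighg1, Ighg2b, Ighg2c, Ighg3 and Igha) and of the kappa light chain (Igkc), with the joining chain gene Jchain and the immunoglobulin chaperone gene Mzb1. They are 10 of the 55487 genes in the count table, picked by symbol with earlier results of the same comparison known, so that their levels and ratios are descriptions without a test. RNA was sequenced from sorted bone marrow common lymphoid progenitors (lineage-negative, CD127-positive, Flt3-positive cells) of mice in 2 groups, 3 SF1 libraries and 2 wild-type (WT) libraries. SF1 mice carry SclCre, a Cre recombinase driven by regulatory sequence of the blood stem cell gene Scl, together with the kinase mutant JAK2-V617F that is common in myeloproliferative neoplasms. Both groups are labelled as harvested 16 weeks after tamoxifen. The labels leave unsaid whether WT mice carry SclCre and whether each library holds RNA of a single animal or of several, so p-values measure only the spread between these libraries, which may be technical. The series asks how the mutant kinase affects lymphoid differentiation.

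An antibody is built from heavy and light chains, each with a variable part assembled from V, (D) and J segments and a constant part that sets its class. The Ighm constant gene lies closest to the assembled variable part and is transcribed in lymphoid progenitors before any antibody is made, partly as non-coding germline RNA. Class switching later brings a constant gene from further downstream, an Ighg gene, Ighe or Igha, next to the variable part in activated B cells. Kappa light chain RNA normally appears after the heavy chain, in small pre-B cells. Plasma cells secrete antibody in bulk, and there Jchain protein links IgA and IgM units into larger molecules.

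Library totals ran between 9350767 and 11290082 counts for SF1, against 20424296 counts for WT replicate 1 and 8894288 counts for WT replicate 2. Levels are given as CPM, a library's count for a gene relative to that library's total, after TMM scaling, which corrects for composition, and 3 counts correspond to between 0.151 and 0.341 CPM. The libraries bore the labelled identity in that Flt3 and Il7r, the genes of the positive sort, and the progenitor gene Dntt were all abundant. Together 13 progenitor genes summed to between 11076 and 11376 CPM in SF1 libraries and to 10427 and 10219 CPM in WT libraries. Dntt alone was at 4875 to 5364 CPM. Of the 13 genes, 5 were called higher in SF1 (edgeR, adjusted p below 0.05), against 6.77% of all genes tested. Another 2 were called lower, against 9.74%, so similar sums do not make the groups alike. The T cell receptor complex genes Cd3e and Cd3g and the B cell gene Ms4a1, named after their values were seen, were at or below 0.437 CPM in every library. Other T and B cell genes, also named after their values were seen, were higher. Cd3d reached 0.550 CPM, Lck lay between 204 and 282 CPM, and Cd79a lay between 115 and 288 CPM. The low genes therefore do not show that T or B lineage RNA was absent. In bulk RNA a change in the number of cells of a type cannot be told apart from a change in RNA per cell.

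Igha, Igkc and Jchain were abundant in the 3 SF1 libraries and near the counting floor in the WT libraries, while Ighm, Ighd and Ighg2b had close to equal levels in both groups. The other members, Ighg1, Ighg2c, Ighg3 and Mzb1, stayed at or below 2.16 CPM in all 5 libraries. Of the 10 members 7 passed the filter on low counts. In a fit across all genes (edgeR, adjusted p below 0.05), 3 of these 7 were called higher, against 6.77% of all genes tested, and 0 were called lower, against 9.74%. The ranges of the groups were separate for 5 of the 7 members tested, against 49.1% of all genes tested, and 4 of these (Ighd, Igha, Igkc and Jchain) had SF1 above WT, against 24.8%. Because the members were chosen with this contrast known, nothing is read from these counts.

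**Figure D1:**
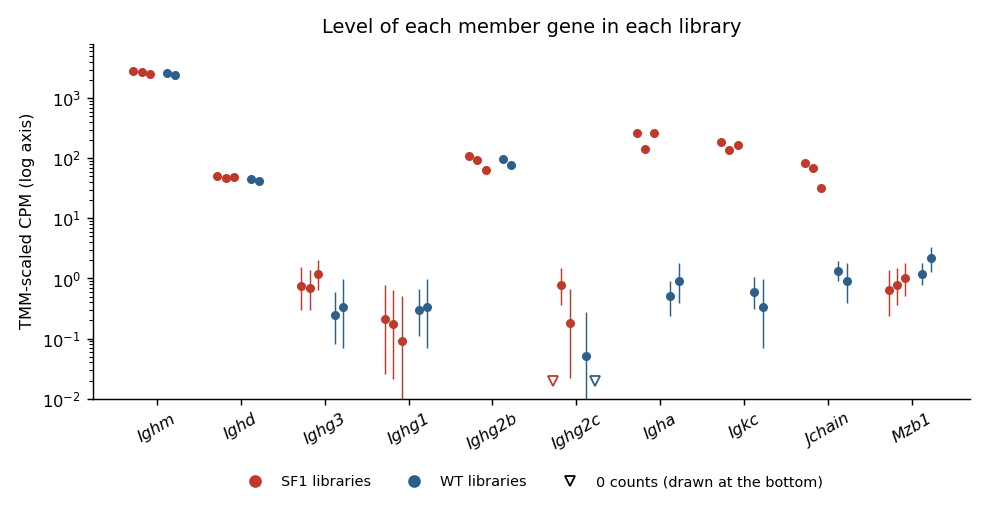
TMM-scaled CPM of each member (log axis) in each SF1 library (left of each pair, red) and WT library (right, blue), with the heavy chain constant genes in their order along the locus. Bars are 95% counting intervals, open triangles mark 0 counts, and Igha, Igkc and Jchain are the members whose groups lie at least 23.4-fold apart.

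The sequence that sets the secreted forms of IgM and IgA apart from secreted IgG is shown first, because it is the part that Jchain protein binds. The secreted Igha and Ighm transcripts read on past the splice site used for the membrane form and encode a tailpiece, whose cysteine codon is in capitals. The secreted Ighg2b transcript reaches its stop codon almost at once. All 3 are from the GENCODE M21 transcripts (GRCm38, minus strand) and end with the stop codon.
Igha, chr12:113258768-113258829: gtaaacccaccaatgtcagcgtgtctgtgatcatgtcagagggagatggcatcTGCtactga
Ighm, chr12:113420867-113420928: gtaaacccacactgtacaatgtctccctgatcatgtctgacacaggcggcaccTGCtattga
Ighg2b, chr12:113306389-113306396: gtaaatga
The Igha and Ighm tails both span 62 bases with the stop codon, and the capitalised codon lies 2 codons before the stop in both. Counts per gene do not separate secreted from membrane transcripts.

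Ighm (chromosome 12, 113418558 to 113422730), the constant gene of IgM, had the highest level of all members in every library. It was at 2875, 2696 and 2577 CPM in SF1 replicates 1, 2 and 3, against 2616 and 2464 CPM in WT replicates 1 and 2. The groups overlapped, and the ratio of the group means was 1.07. Ighd (113406604 to 113416324), whose RNA is made by alternative splicing of transcripts that run on from Ighm, was at 51.5, 46.5 and 49.0 CPM in SF1 libraries, against 44.5 and 41.8 CPM in WT libraries. Its lowest SF1 library lay 1.04-fold above its highest WT library. The count of Ighm per count of Ighd was 55.8, 58.0 and 52.6 in SF1 libraries and 58.8 and 58.9 in WT libraries, so the pair kept close proportions in all 5 libraries.

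Among the 4 IgG genes, only Ighg2b had more than 13 counts in any library, and it did so in both groups. Ighg2b (113302965 to 113307933) was at 107, 92.4 and 64.9 CPM in SF1 libraries, against 97.0 and 77.2 CPM in WT libraries. The groups overlapped, with a mean of 88.2 ± 21.6 CPM in SF1 (SD, n = 3) and 87.1 ± 14.0 CPM in WT (SD, n = 2). Ighg1 had 2, 2 and 1 counts in SF1 libraries, against 6 and 3 counts in WT libraries. Ighg3 had 7, 8 and 13 counts in SF1 libraries, against 5 and 3 counts in WT libraries. With counts summed in each group and divided by the summed TMM-scaled library totals, the SF1 over WT ratio was 3.16 (95% counting interval 1.40 to 8.03). Ighg2c had 0, 9 and 2 counts in SF1 libraries, against 1 and 0 counts in WT libraries. Its ratio, formed the same way, was 9.94 with a counting interval of 1.45 to 428. Most Ighg2c counts came from SF1 replicate 2. The secreted transcripts of these genes are 75.8% to 84.5% identical in pairs, with Ighg2b and Ighg2c the closest, so a few reads may be placed on the wrong IgG gene. The constant gene of IgE, Ighe, which is not a member, had 6, 2 and 6 counts in SF1 libraries, against 1 and 5 counts in WT libraries.

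Igha (113254830 to 113260236), the constant gene of IgA and the last of the heavy chain locus, differed most among the heavy chain genes. It had 2522, 1652 and 2894 counts in SF1 libraries, against 10 and 8 counts in WT libraries. That is 268, 144 and 265 CPM in SF1 libraries, against 0.502 and 0.909 CPM in WT libraries. Every SF1 library stood far above both WT libraries, the lowest 159-fold above the higher WT library, and the means of 226 ± 70.6 CPM in SF1 (SD, n = 3) and 0.706 ± 0.288 CPM in WT (SD, n = 2) were 320-fold apart.

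In the heavy chain constant counts as a whole, Igha took a larger share in SF1, although Ighm held most of them everywhere. With 95% exact (Clopper-Pearson) intervals in brackets, Igha was 8.11% (7.80 to 8.41%), 4.84% (4.62 to 5.08%) and 8.97% (8.66 to 9.29%) of them in SF1 replicates 1, 2 and 3. In WT replicates 1 and 2 it was 0.0182% (0.00873 to 0.0335%) and 0.0352% (0.0152 to 0.0693%). Ighm held 87.0, 90.4 and 87.1% in SF1 libraries, against 94.8 and 95.3% in WT libraries. Among counts of the genes downstream of Ighd only, Igha held 71.1% (69.5 to 72.6%), 60.5% (58.7 to 62.4%) and 79.9% (78.5 to 81.2%) in SF1 replicates 1, 2 and 3, against 0.512% (0.246 to 0.939%) and 1.15% (0.496 to 2.25%) in WT replicates 1 and 2. Ighg2b held nearly all the rest in SF1 libraries and 98.8% (98.2 to 99.3%) and 97.3% (95.8 to 98.4%) in the WT libraries.

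**Figure D2:**
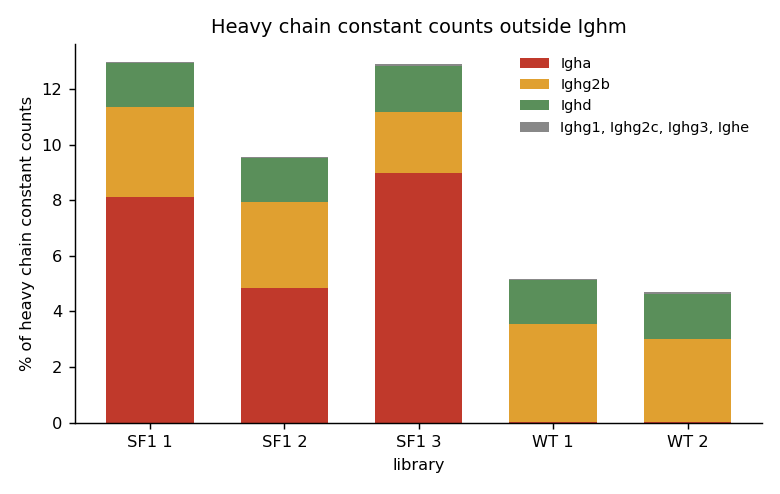
Percent of each library's heavy chain constant counts that fell in genes other than Ighm, stacked by gene, with SF1 libraries left of WT libraries. Igha takes between 4.84 and 8.97% in SF1 libraries and too little to see in WT libraries, while Ighg2b takes between 2.19 and 3.25% in SF1 libraries, against 3.52 and 2.99% in WT libraries, lowest in SF1 replicate 3.

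Igkc (chromosome 6, 70726435 to 70726966), the kappa constant gene, varied less among the SF1 libraries than Igha or Jchain did. It had 1743, 1553 and 1829 counts there, against 12 and 3 counts in WT libraries. In CPM these were 185, 136 and 168 in SF1 libraries, against 0.603 and 0.341 in WT libraries, and the lowest SF1 library lay 225-fold above the higher WT library. The highest and lowest SF1 libraries were 1.36-fold apart for Igkc, 1.85-fold for Igha and 2.68-fold for Jchain. Lambda constant genes, the other light chain class, had 13, 17 and 4 counts in SF1 libraries, against 0 and 3 counts in WT libraries. They made up 0.740% (95% exact interval 0.395 to 1.26%), 1.08% (0.632 to 1.73%) and 0.218% (0.0595 to 0.558%) of light chain constant counts in SF1 replicates 1, 2 and 3. All SF1 lambda counts lay in Iglc2 and Iglc3.

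V kappa counts lay mostly in few segments, which differed between the SF1 libraries. The ends of the leading segments are printed because they carry the start of the third hypervariable loop, which begins after the cysteine codon in capitals. They are the last 50 bases of each V exon in the GENCODE M21 transcripts (GRCm38), on the minus strand for the first 3 and the plus strand for the last.
Igkv4-57, chr6:69575975-69576024: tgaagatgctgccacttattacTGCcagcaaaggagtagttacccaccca
Igkv10-96, chr6:68631963-68632012: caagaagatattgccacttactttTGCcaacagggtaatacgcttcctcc
Igkv4-63, chr6:69377944-69377993: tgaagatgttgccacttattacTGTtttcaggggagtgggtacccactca
Igkv14-111, chr6:68256820-68256869: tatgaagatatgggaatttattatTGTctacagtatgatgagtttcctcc
Igkv4-57 had 257 counts in SF1 replicate 1 and 0 in the other 4 libraries. Igkv10-96 had 347 counts in SF1 replicate 2 and 0 elsewhere. Igkv4-63 had 460 counts in SF1 replicate 3, 13 in SF1 replicate 1 and 0 elsewhere. Each SF1 library therefore had a different leading segment, and all 3 were at 0 counts in the WT libraries, where 3 counts would be 0.151 and 0.341 CPM.

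Igkv14-111 behaved otherwise. It was at 1.17, 0.787 and 0.825 CPM in SF1 libraries, against 1.21 and 0.796 CPM in WT libraries, with overlapping groups, and it was the leading V kappa segment in both WT libraries. Of 100 annotated V kappa genes, 13, 7 and 6 had a count in SF1 replicates 1, 2 and 3, against 2 and 3 in WT replicates 1 and 2. In SF1 replicate 1 a second segment, Igkv5-43, held 35 counts and was at 0 in the other libraries (chosen after its values were seen). Igkv4-57 and Igkv4-63 are 91.2% identical over 352 bases and Igkv4-57 and Igkv4-54 are 94.0% identical, so small counts of an Igkv4 segment beside a large one may be misplaced reads. Igkv4-54 had 13 counts in SF1 replicate 1 and 10 in SF1 replicate 3. Igkv10-96 is 66.0% identical to Igkv4-57. V kappa counts per Igkc count were 0.198, 0.234 and 0.267 in SF1 libraries, against 2.42 and 3.00 in the WT libraries, where they rest on 12 and 3 Igkc counts. No read was counted on the 5 annotated J kappa segments in any library.

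**Figure D3:**
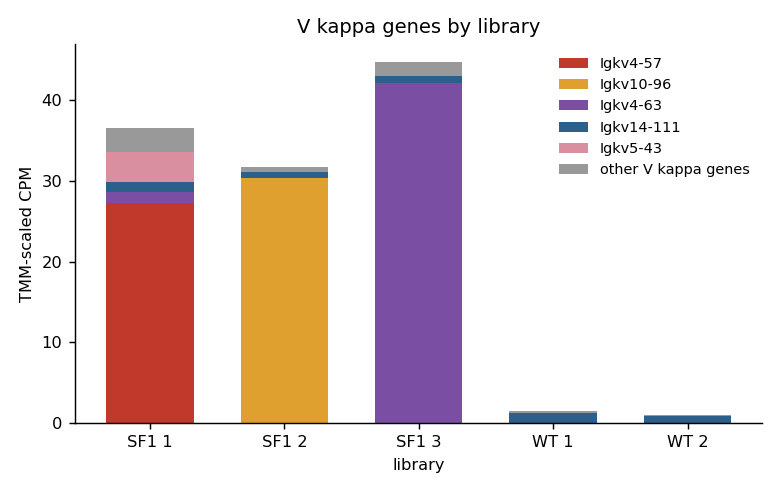
TMM-scaled CPM of V kappa genes in each library, stacked by gene, with SF1 libraries left of WT libraries. A different gene fills most of each SF1 bar (Igkv4-57, Igkv10-96 and Igkv4-63), and the short WT bars are mostly Igkv14-111, which is of similar height in all 5 libraries.

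In the heavy chain, the V segment Ighv1-81 had 48, 257 and 603 counts in SF1 libraries, against 105 and 35 counts in WT libraries. It held 21.9% of V heavy counts in SF1 replicate 2 (95% exact interval 19.5 to 24.3%) and 43.4% in SF1 replicate 3 (40.8 to 46.0%). Ighv1-23 led in the other 3 libraries, with 16.8% in SF1 replicate 1 (14.6 to 19.2%), against 22.9% (21.1 to 24.7%) and 19.8% (17.3 to 22.4%) in WT replicates 1 and 2, and it held 20.5% in SF1 replicate 2 (18.2 to 22.9%). It was at 18.7, 21.1 and 20.1 CPM in SF1 libraries, against 25.1 and 22.2 CPM in WT libraries.

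Jchain (chromosome 5, 88519809 to 88527891) was higher in SF1 like Igha and Igkc, but its order within SF1 was a different one. It had 800, 781 and 346 counts in SF1 libraries, against 27 and 8 counts in WT libraries. That is 84.9, 68.3 and 31.7 CPM in SF1 libraries, against 1.36 and 0.909 CPM in WT libraries, with the lowest SF1 library 23.4-fold above the higher WT library. SF1 replicate 3 had the lowest Jchain level of its group and nearly the highest Igha level. The count of Jchain per count of Igha was accordingly 0.317, 0.473 and 0.120 in SF1 replicates 1, 2 and 3. In WT libraries it was 2.70 and 1.00, from at most 27 counts of either gene.

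Mzb1 (chromosome 18, 35647267 to 35649367), which encodes an endoplasmic reticulum protein that helps antibody assembly in plasma cells and some B cells, stayed low. It was at 0.637, 0.787 and 1.01 CPM in SF1 libraries, against 1.21 and 2.16 CPM in WT libraries. All SF1 libraries lay below both WT libraries, and the counts behind these values were 6, 9 and 11 in SF1 libraries and 24 and 19 in WT libraries. An exon of Mzb1 overlaps another gene on the same strand, so reads there may be left uncounted or assigned to that gene.

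Per kilobase of exon, the order of the members differed between the groups. In SF1 libraries Ighm came first with a mean of 1440 CPM per kilobase, then Igkc with 306 and Igha with 84.7, and these 3 had separate ranges. Ighg2b with 33.0, Ighd with 25.8 and Jchain with 24.5 CPM per kilobase followed with overlapping ranges, and Mzb1, Ighg3, Ighg2c and Ighg1 had means at or below 0.667. In WT libraries Ighm with 1347 CPM per kilobase was followed by Ighg2b with 32.5 and Ighd with 22.7. Mzb1 with 1.38, Igkc with 0.887, Jchain with 0.450 and Igha with 0.265 CPM per kilobase came next, with Mzb1 and Igkc overlapping. Together Igkc, Igha and Jchain held 0.0542, 0.0353 and 0.0472% of all counts in SF1 libraries, against 0.000240 and 0.000214% in WT libraries.

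Other genes of plasma cells differed less, the largest fold change among those called higher being 3.42, that of Cd38. Of 30 listed plasma cell genes, 27 were tested, 4 were higher in SF1, 1 was lower and 22 were not called, against 16.5% of all genes tested called in either direction. Their median log2 fold change was 0.14, against 0.02 for all genes tested. The list summed to between 4334 and 4750 CPM in SF1 libraries and to 4173 and 4503 CPM in WT libraries. Much of that sum came from Hspa5 (902 to 1126 CPM), Hsp90b1 (645 to 721 CPM) and Pdia6 (456 to 542 CPM). These genes were not called and are named after their values were seen. The sum would therefore show little of a change in the scarcer genes of the list. Cd38, a surface ectoenzyme of plasma cells and many other blood cells, was at 20.1, 23.9 and 27.0 CPM in SF1 libraries, against 6.98 and 6.82 CPM in WT libraries (log2 fold change 1.77, SE 0.18, adjusted p = 0.000706 by edgeR's quasi-likelihood test). Sec11c, a signal peptidase subunit, rose 1.37-fold (adjusted p = 0.00663). Edem2, which helps clear misfolded glycoproteins, rose 1.25-fold (adjusted p = 0.0332), and Tnfrsf13b, a receptor of B cells and plasma cells named because it completes the called genes, rose by 0.31 on the log2 scale (adjusted p = 0.0372). Pou2af1, a coactivator at immunoglobulin promoters, fell to 36.8 ± 12.8 CPM in SF1 (SD, n = 3), against 116 ± 16.3 CPM in WT (SD, n = 2; adjusted p = 0.00206). With SF1 replicate 2 or SF1 replicate 3 left out the list had 3 calls, and with WT replicate 1 left out it had 2, Sec11c then having an adjusted p of 0.0502. Leaving out any library other than SF1 replicate 1 ended the calls of Edem2 (adjusted p between 0.0752 and 0.181) and of Tnfrsf13b (between 0.0919 and 0.169).

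Of the defining plasma cell genes of that list, named after their values were seen, Tnfrsf17 was too low to be tested and Prdm1, Xbp1 and Sdc1 were not called. Tnfrsf17, which encodes the receptor BCMA, had 3, 1 and 5 counts in SF1 libraries, against 4 and 2 counts in WT libraries. Prdm1, the transcription factor that directs plasma cell differentiation, was at 1.06, 0.262 and 1.47 CPM in SF1 libraries, against 1.21 and 0.341 CPM in WT libraries (adjusted p = 0.944, edgeR). Xbp1, the factor of the secretory stress response, was at 284, 260 and 266 CPM in SF1 libraries, against 205 and 240 CPM in WT libraries (adjusted p = 0.0654, edgeR). Sdc1, which encodes the plasma cell antigen CD138, was at 178, 165 and 197 CPM in SF1 libraries, against 153 and 154 CPM in WT libraries (adjusted p = 0.122, edgeR). A call that misses the threshold does not show that Prdm1, Xbp1 or Sdc1 is equal in both groups.

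Among genes of B cells that carry surface immunoglobulin, most were not called. Of 23 listed genes, 18 were tested, 4 were lower, against 9.74% of all genes tested, 1 was higher, against 6.77%, and 13 were not called. Their median log2 fold change was -0.10, against 0.02 for all genes tested. On the log2 scale the signalling chain genes Cd79a and Cd79b fell by 0.97 and 0.49 (edgeR, adjusted p = 0.00799 and 0.0182), and the tetraspanin gene Cd37 fell by 0.45. The Fc receptor-like gene Fcrla, named after its values were seen, was the higher gene, with a log2 fold change of 1.56 (adjusted p = 0.0208, edgeR). With WT replicate 1, SF1 replicate 2 or SF1 replicate 3 left out the list had 3 calls. Cd79b then missed the threshold each time (adjusted p between 0.0666 and 0.0879), and so did Fcrla, as it did with WT replicate 2 left out (between 0.0645 and 0.0806).

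The genes listed with the surrogate light chain, which stands in for the light chain on pre-B cells, were partly lower in SF1, where Igkc was higher. The list holds Igll1, Vpreb1 and Vpreb2, which encode that chain, and the related gene Vpreb3. Of the 4 genes, Igll1, Vpreb1 and Vpreb3 were lower, against 9.74% of all genes tested, and Vpreb2 was not called. Igll1 was at 158 ± 18.9 CPM in SF1 (SD, n = 3) and 289 ± 44.8 CPM in WT (SD, n = 2; adjusted p = 0.00241, edgeR). In log2 units, Vpreb3 fell by 1.12 (adjusted p = 0.0148, edgeR) and Vpreb1 fell by 0.70 (adjusted p = 0.0311). Vpreb2 had a log2 fold change of -0.57 (adjusted p = 0.115, edgeR). Vpreb2 passed with DESeq2's Wald test (adjusted p = 0.0451) and in edgeR with no filter on low counts (0.000288). It missed the threshold with limma voom (0.0539), and in edgeR with DESeq2 size factors, minimum count 30, thinning or the replicate block (between 0.113 and 0.145). Leaving out WT replicate 1, SF1 replicate 2 or SF1 replicate 3 ended the call of Vpreb1 (adjusted p between 0.0914 and 0.205). Leaving out SF1 replicate 3 or WT replicate 1 ended that of Vpreb3 (0.0606 and 0.0624), and leaving out SF1 replicate 1 made Vpreb2 pass (0.00529).

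Of the class switch genes 20 of the 23 listed were tested, 1 was higher, 1 was lower and 18 were not called, against 16.5% of all genes tested called in either direction. Other tools and filters gave 5 calls (DESeq2), 4 (limma voom) and 8 (edgeR with no filter on low counts). Batf, a transcription factor needed for switching in B cells, was at 30.4 ± 3.35 CPM in SF1 (SD, n = 3) and 17.7 ± 3.06 CPM in WT (SD, n = 2; adjusted p = 0.0116, edgeR), and was lost without WT replicate 1 (0.0992). Tgfbr2, a receptor chain for TGF-beta, the cytokine that directs switching to IgA, fell by 0.44 in log2 units (edgeR, adjusted p = 0.0354), but missed the threshold with any library other than SF1 replicate 1 left out (between 0.0514 and 0.213). The mismatch repair gene Msh6 had a log2 fold change of -0.34 (adjusted p = 0.0511, edgeR). It passed the threshold with DESeq2's Wald test (adjusted p = 0.0120) and with limma voom (0.0388). Within edgeR it passed with no filter on low counts (0.000851), DESeq2 size factors (0.0455), a minimum count of 30 (0.0498) and thinning (0.0497). Msh6 missed the threshold with the replicate block (0.142) and with any SF1 library left out (between 0.0666 and 0.136, edgeR). With SF1 replicate 2 or SF1 replicate 3 left out the list had 1 call, and with SF1 replicate 1 left out it had 4. Msh6 was not among those 4 (log2 fold change -0.36, adjusted p = 0.0729, edgeR). Without WT replicate 2, which leaves 1 WT library, its log2 fold change was -0.45.

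**Figure D4:**
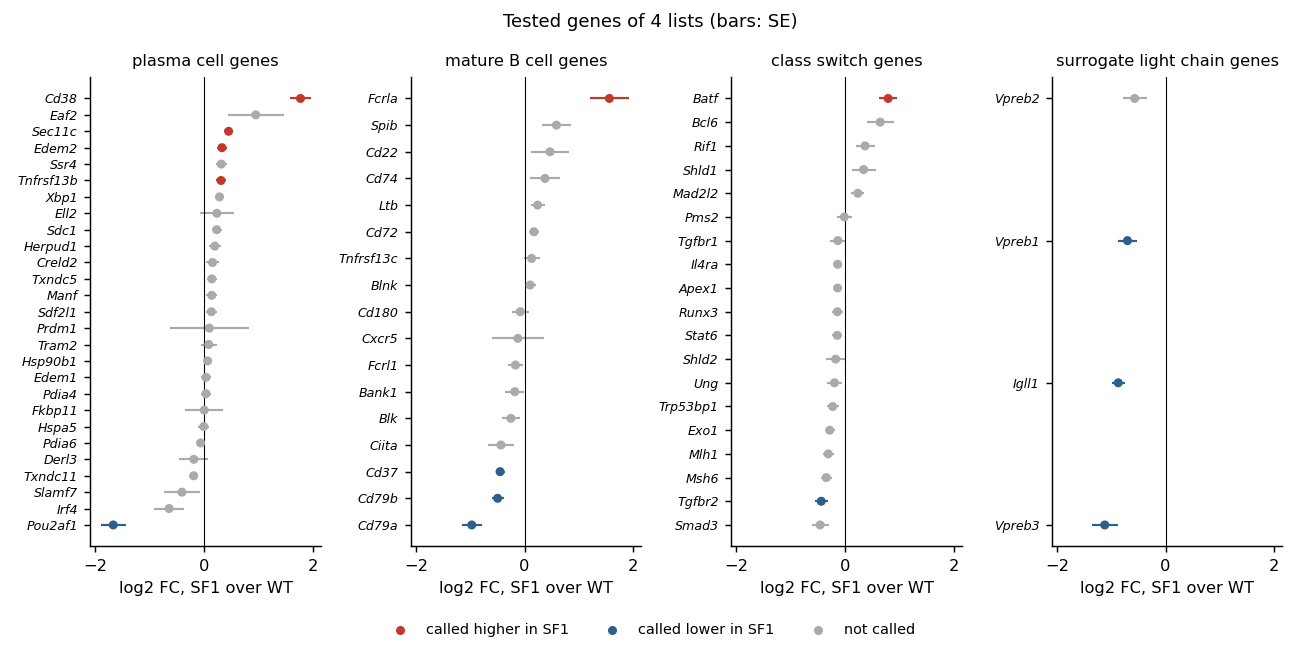
Log2 fold change (SF1 over WT) of tested genes of 4 lists, with bars for the SE, coloured by the edgeR call. The highest point is Cd38 at 1.77 and the lowest Pou2af1 at -1.67, against 8.46, 8.26 and 5.66 for Igha, Igkc and Jchain, which are not plotted.

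Markers of other cell types also moved between these groups. Their counts of calls stand against 6.77% of all genes tested called higher and 9.74% called lower. Of 15 neutrophil genes 13 were higher in SF1 and 2 were not called, with a median log2 fold change of 4.42. They summed to 2064, 2574 and 5650 CPM in SF1 replicates 1, 2 and 3, against 940 and 1156 CPM in WT replicates 1 and 2. Mpo, not called and named after its values were seen, made up most of the WT sums. It was at 772, 807 and 987 CPM in SF1 libraries, against 778 and 986 CPM in WT libraries. SF1 replicate 3, with the largest neutrophil sum, had the lowest Jchain level of the SF1 libraries and an Igha level close to that of SF1 replicate 1. Of 8 erythroid genes tested 6 were lower, and the list summed to between 76.9 and 101 CPM in SF1 libraries, against 204 and 180 CPM in WT libraries. Most of that sum came from Car2, called lower and named after its values were seen. Car2 was at 74.7, 71.1 and 93.1 CPM in SF1 libraries, against 133 and 131 CPM in WT libraries. Of 10 macrophage genes tested 6 were lower, and the list summed to between 75.7 and 89.2 CPM in SF1 libraries, against 102 and 94.7 CPM in WT libraries. Most of that sum came from Cd163, not called and named after its values were seen. Cd163 was at 62.6, 68.4 and 65.6 CPM in SF1 libraries, against 63.4 and 48.5 CPM in WT libraries. The sum therefore shows little of the fall in the scarcer genes called lower. Of 3 eosinophil genes tested 1 was higher and 1 lower, and the list summed to 4.99, 34.9 and 13.6 CPM in SF1 libraries, against 5.32 and 7.16 CPM in WT libraries. The high sum of SF1 replicate 2 came mostly from Prg2, the higher gene, named after its values were seen. Prg2 was at 0.425, 28.6 and 5.87 CPM in SF1 libraries, against 0.251 and 0.114 CPM in WT libraries. Ear1 was at 0 and the defining gene Epx at or below 0.734 CPM. Of 6 T cell genes tested 1 was higher, and the list summed to between 273 and 303 CPM in SF1 libraries, against 262 and 218 CPM in WT libraries, mostly from Lck, with Cd8b1 at 0. The part of these cell types in the levels of Igha, Igkc and Jchain was not tested.

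Outside the immunoglobulin genes, the tested genes with the pattern most like the mean of Igkc, Igha and Jchain over the 5 libraries were found by the root mean square difference of mean-centred log2(CPM + 0.5) values. The nearest was G530011O06Rik, annotated as a processed transcript without an open reading frame, with a difference of 0.77 on the log2 scale. It was at 20.4, 26.8 and 20.9 CPM in SF1 libraries, against 0.100 and 0.114 CPM in WT libraries. Genes were ranked here by likeness to a pattern that is high in SF1 and low in WT, so separate groups follow from the choice. Mid1, a ubiquitin ligase gene, followed with a difference of 1.38 and levels of 8.71, 14.3 and 11.5 CPM in SF1 libraries, against 0.251 and 0.227 CPM in WT libraries. The neutrophil genes Lcn2, Ltf and S100a9 came next, with differences of 1.40, 1.40 and 1.43. With a pseudocount of 2 in place of 0.5, 3 of these 5 genes, G530011O06Rik, Ltf and S100a9, were again among the nearest 5.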

How the data were processed

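The deposited values are raw counts of reads for each gene, without normalization by the authors. The submitters' processing notes name featureCounts 2.0.1, HISAT2 2.2.1, FastQC and the GRCm38 build. Which annotation was counted, with what strand setting and with what treatment of reads matching several places, is not stated there. Per the labels' protocols, cDNA was made with SMART-Seq version 2 or 4 and libraries with Nextera XT, without molecular identifiers or strand marking, so PCR copies count as reads, a gene cannot be told apart from an overlapping one on either strand, and counting intervals (95%) and the floor of 3 counts cover counting error only. Of 55487 identifiers, 55227 matched GENCODE M21 (GRCm38), which gave symbols, coordinates, exon lengths and transcript sequences.

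All genes were tested with edgeR 4.0.16 (R 4.3.3): TMM scaling, filterByExpr (minimum count 10), quasi-likelihood F test of SF1 over WT without covariates, Benjamini-Hochberg adjustment over all 14423 genes tested, threshold 0.05. It called 977 genes higher and 1405 lower. Alternatives used DESeq2 1.42.0, limma 3.58.1 voom, other filters, thinning, a replicate block and each library left out. Within groups, library pairs differed by more than counting error (chi-square per degree of freedom of at least 6.38). This cannot tell libraries of the same animal or RNA from libraries of different animals. Genes named are the members, the 4 genes of each list with the smallest p, segments with at least 20% of their class and the 5 nearest patterns; others are marked as chosen after their values were seen, and list genes of other cell types are given as sums. Members and lists were chosen with earlier results of these data known. Shld3 had no match in the table. Some listed genes count in the totals of their list but are not reported here by name or plotted.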

Additional observations from a re-analysis of the deposited data

How the results depend on the processing

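Over all genes tested, 2382 were called, 1519 with a replicate block and between 986 and 2170 with any 1 library left out (986 without WT replicate 1, 1234 without SF1 replicate 2, 1294 without SF1 replicate 3). Plasma cell genes called numbered 5, 3 with the replicate block and between 2 and 6 with a library left out. Mature B cell genes called numbered 5, and between 3 and 6 with a library left out. Class switch genes called numbered 2, 5 by DESeq2's Wald test, 4 by limma voom, 8 with no filter on low counts, 1 with the replicate block and between 1 and 4 with a library left out. The other 28 counts under an alternative stayed within 1.5 times the main count. Same-numbered libraries share only a number: the correlation of their deviations from the group means was 0.0356 and 0.0646, and no label pairs them. The block also took the calls of Edem2, Tnfrsf13b, Fcrla and Tgfbr2 (adjusted p = 0.0842, 0.144, 0.0694 and 0.0855, edgeR). The cause of these shifts was not tested. Log2 differences of the members used a prior count of 2, except in the alternatives that set it to 0.5 or 5. Over the 11 alternatives that enter them (a block does not), the ratios ran from 7.62 to 8.36 for Igha and 7.53 to 8.35 for Igkc. Both Igkc limits came from the changed prior counts, and 3 of its 11 ratios moved by at least the pooled SD within groups. The ratios ran from 5.20 to 5.90 for Jchain and -0.17 to 0.20 for Ighg2b. Where the groups do not overlap, leaving out a library cannot turn the direction. Per kilobase of exon, Igha made up 3.51 to 6.56% of heavy chain constant signal in SF1 libraries, against 0.0130 and 0.0251% in WT libraries. Depth limits Ighg1, Ighg2c, Ighg3 and Mzb1, and the WT levels of Igkc, Igha and Jchain rest on 3 to 27 counts.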

Other observations

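The 4 J heavy segments were counted in every library, unlike the J kappa segments, and their sum was higher in SF1, at 36.6, 45.2 and 41.6 CPM in SF1 libraries, against 29.0 and 26.8 CPM in WT libraries. Ighj1 held between 48.4 and 54.2% of these counts in all 5 libraries. Germline D segments were counted less often, at 1.70, 1.31 and 0.917 CPM in SF1 libraries, against 3.16 and 3.30 CPM in WT libraries, with all SF1 libraries below both WT libraries. The sum of the V heavy genes overlapped between the groups, at 111, 103 and 127 CPM in SF1 libraries, against 110 and 112 CPM in WT libraries. The lambda V genes had 8, 12 and 0 counts in SF1 libraries, against 0 and 1 count in WT libraries, led by Iglv1 in SF1 replicate 1 and Iglv3 in SF1 replicate 2. None of these sums was tested.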
